A study of Homo sapiens with 14 samples.

Results

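The ascorbate response described here is the difference between K562 libraries that received ascorbate and those that did not, taken over cells with and without the compound TETi76. K562 is a human erythroleukaemia line, and the clone K01, TET2+/+ in the series text, was used. Of 14 libraries in the whole series, 8 enter: 2 of TETi76 with ascorbate and 2 of ascorbate, against 2 of TETi76 and 2 of DMSO, chosen from the sample labels and not from measured values. Ascorbate was given at 100 µM and TETi76, which the series describes as an inhibitor of TET dioxygenases, at 12.5 µM, both for 24 h in RPMI medium, and polyadenylated RNA was sequenced. The treatment protocol pairs DMSO or TETi76 with or without ascorbate, but the label of the ascorbate libraries names no DMSO, so whether those cells also received this vehicle is not stated for them. All libraries come from 1 clone, and the labels number the replicates without saying whether they were separate cultures, so the p-values rest on library-to-library spread, which may be only technical. The TETi76 pair and the pair without TETi76 are called arms below, and they share no library.

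Ascorbate, or vitamin C, keeps the iron of 2-oxoglutarate-dependent dioxygenases in its reduced form. These enzymes include the TET proteins, which oxidise 5-methylcytosine in DNA, the JmjC histone demethylases, and the prolyl hydroxylases that act on collagen and on the hypoxia factor HIF. Cells take up ascorbate through the SLC23A carriers and its oxidised form through glucose transporters, and ascorbate can also act as a reductant or, with free metal ions in medium, as a source of peroxide.

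Expression was given as FPKM, fragments scaled by gene length and by library size. Replicates correlated at r = 0.9754 to 0.9854 on log2(FPKM + 1), and ascorbate and no-ascorbate libraries of an arm at 0.9748 to 0.9817, so the difference between treatments was of the order of that between replicates. Libraries with and without TETi76 at matched ascorbate correlated at 0.9479 to 0.9599. The estimated depth of the first TETi76 with ascorbate library was 0.525 times that of the first DMSO library, and the other 6 lay at 0.722 to 0.815 times. Erythroid genes, the lineage markers of K562, summed to 7780 to 11620 FPKM in ascorbate libraries, against 9014 to 11120 FPKM without ascorbate. The 8 lymphoid markers, 2 of them at 0 throughout, summed to 12.3 to 39.3 FPKM, against 14.8 to 23.3 FPKM without ascorbate. All these ranges join libraries with and without TETi76. CD3D alone measured 38.1 FPKM in the second TETi76 with ascorbate library.

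HSPA1A was the 1 gene that passed the test with the same direction in both arms. It encodes the stress-inducible form of the chaperone HSP70, which holds and refolds damaged proteins. HSPA1A measured 176.3 and 190.1 FPKM with TETi76 and ascorbate, against 92.9 and 96.7 FPKM with TETi76. Without TETi76 it measured 29.2 and 26.8 FPKM with ascorbate, against 18.3 and 14.1 FPKM with DMSO. The groups did not overlap in either arm, at levels that differed several-fold between arms.

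The group means of HSPA1A were 183.2 ± 9.71 FPKM for TETi76 with ascorbate and 94.75 ± 2.69 FPKM for TETi76, a ratio of 1.93, and 28.0 ± 1.71 FPKM for ascorbate and 16.2 ± 2.99 FPKM for DMSO, a ratio of 1.73 (SD, n = 2 each). In a limma fit with TETi76 as a block, the HSPA1A difference was 0.85 on the log2(FPKM + 1) scale (SE 0.09, 95% confidence interval 0.66 to 1.05, adjusted p = 0.0316). The difference was 0.94 in the TETi76 arm and 0.76 in the arm without TETi76, and the test of the difference between arms gave an adjusted p of 0.732. Over the 12220 genes tested, the 1 call is 0.00818%, with 0 genes called lower, and 1229 genes (10.1%) had an unadjusted p under 0.05. For comparison, 4443 genes (36.4%) passed for TETi76 in the same fit. The HSPA1A call depended on the libraries used. It was kept without the first DMSO replicate (adjusted p = 0.00388) and lost without any other single library. Without the ascorbate replicates its adjusted p was 0.0914 and 0.096, and without the second DMSO replicate 0.137. Without the TETi76 with ascorbate replicates it was 0.223 and 0.0946, and without the TETi76 replicates 0.277 and 0.211, while the log2 difference stayed between 0.80 and 0.94 in all 8 fits.

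HSPA1B, the neighbouring gene for the same chaperone, is nearly identical in sequence, so reads may have been divided between them. HSPA1B measured 117.0 and 122.4 FPKM with TETi76 and ascorbate, against 61.9 and 67.4 FPKM with TETi76, and 14.7 and 18.3 FPKM with ascorbate, against 12.8 and 12.4 FPKM with DMSO. The HSPA1B groups did not overlap in either arm, and its block-fit difference of 0.62 (SE 0.12) had an adjusted p of 0.188. With both rows added into a single value, the difference was 0.77 and the adjusted p 0.0371. DNAJB1, the co-chaperone that delivers substrates to HSP70, measured 94.7 and 91.0 FPKM with TETi76 and ascorbate, against 64.3 and 64.3 FPKM with TETi76. Its other arm gave 39.5 and 35.8 FPKM with ascorbate, against 29.3 and 29.4 FPKM with DMSO. Again the groups stood apart in both arms (log2 0.43, SE 0.07, adjusted p = 0.103).

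The promoters of these 3 chaperone genes are shown because the genes were higher with ascorbate in each arm. Heat shock factors bind inverted repeats of the unit GAA, and the pair of facing units, GAANNTTC or TTCNNGAA, is marked in capitals. Each motif is its own reverse complement, so a search of 1 strand covers both, and overlapping matches were allowed. The windows run from 250 bases before to 50 bases after the transcription start, read 5′ to 3′ along the gene, from RefSeq on GRCh38.p14, and are at chr6:31815293-31815592 (plus strand) for HSPA1A, chr6:31827488-31827787 (plus) for HSPA1B and chr19:14518348-14518647 (minus) for DNAJB1.
HSPA1A: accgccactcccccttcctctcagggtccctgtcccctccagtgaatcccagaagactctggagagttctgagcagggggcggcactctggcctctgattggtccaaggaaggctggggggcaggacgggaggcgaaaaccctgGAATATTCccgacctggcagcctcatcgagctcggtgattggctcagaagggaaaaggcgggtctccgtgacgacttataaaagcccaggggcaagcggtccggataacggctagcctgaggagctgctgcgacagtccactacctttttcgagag
HSPA1B: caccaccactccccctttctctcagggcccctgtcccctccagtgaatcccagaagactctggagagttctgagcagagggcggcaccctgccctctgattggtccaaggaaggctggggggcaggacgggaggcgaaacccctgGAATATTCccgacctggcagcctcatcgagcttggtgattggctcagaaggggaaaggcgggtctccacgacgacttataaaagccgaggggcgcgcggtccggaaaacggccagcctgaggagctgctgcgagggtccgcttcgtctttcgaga
DNAJB1: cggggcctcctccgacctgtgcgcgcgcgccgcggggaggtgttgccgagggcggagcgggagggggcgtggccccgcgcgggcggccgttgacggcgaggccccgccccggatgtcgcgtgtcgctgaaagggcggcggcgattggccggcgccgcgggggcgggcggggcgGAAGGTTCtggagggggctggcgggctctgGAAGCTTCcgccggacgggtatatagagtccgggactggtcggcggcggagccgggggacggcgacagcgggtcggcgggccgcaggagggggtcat
HSPA1A holds GAATATTC starting 106 bases before its start and HSPA1B holds the same letters 105 bases before, in windows that were identical at 277 of 299 aligned bases (92.6%). DNAJB1 has 3 RefSeq windows, of which 2 hold a match and 1 holds none, and the window shown has the most, GAAGGTTC at 77 and GAAGCTTC at 47 bases before its start. A motif of this kind was in 13.5% of all 35116 windows, in 13.4% of the 8947 tested genes with a window, and in 13 of 17 genes of the heat-shock list. The match is a description of letters and does not show a bound site.

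A fit with a mean for each of the 4 groups, which takes the difference between arms out of the residual spread, called 13 genes for the average of the arms with the same sign in each (0.106% of genes tested), 9 higher (0.0736%) and 4 lower (0.0327%). HSPA1A was among them (adjusted p = 0.0286), and the other 12 were not called in the block fit. They are named here after their values were seen. The 13 genes did not hold as a set when any 1 library was left out, and most of them passed in none of those fits. A gene that did pass in such a fit was not always 1 of the 13. The 13 kept their direction there, with EGR1 at log2 0.60 to 0.65 and LINC00173 at -1.67 to -1.33.

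EGR1, an immediate early transcription factor of growth-factor and stress signalling, measured 88.8 and 84.6 FPKM with TETi76 and ascorbate, against 67.9 and 64.6 FPKM with TETi76. In the other arm EGR1 was at 72.0 and 73.8 FPKM with ascorbate, against 40.9 and 38.3 FPKM with DMSO. Its difference was 0.38 in the TETi76 arm and 0.87 in the arm without TETi76, with an adjusted p of 0.0149 for the average and 0.103 in the block fit. SQSTM1, the autophagy receptor p62 and an NRF2 target, measured 576.3 and 572.0 FPKM with TETi76 and ascorbate, against 359.1 and 356.0 FPKM with TETi76. Its arm without TETi76 was closer, at 65.1 and 66.9 FPKM with ascorbate, against 61.1 and 51.7 FPKM with DMSO. The SQSTM1 groups did not overlap in either arm, and the block-fit difference was 0.46 (SE 0.09, adjusted p = 0.206). 

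HMGCS1, an early enzyme of cholesterol synthesis, measured 37.7 and 37.9 FPKM with TETi76 and ascorbate, against 29.7 and 32.6 FPKM with TETi76. In the arm without TETi76 it was at 76.6 and 73.8 FPKM with ascorbate, against 49.2 and 48.9 FPKM with DMSO. The ascorbate libraries were the higher ones in each arm (log2 0.44, SE 0.08, block-fit adjusted p = 0.188). MSRB1, a selenoprotein that repairs oxidised methionine, measured 56.7 and 58.3 FPKM with TETi76 and ascorbate, against 41.1 and 40.5 FPKM with TETi76. Its levels were 29.4 and 29.5 FPKM with ascorbate, against 22.9 and 22.1 FPKM with DMSO. MSRB1 thus differed by 0.48 and 0.37 on the log2 scale in the TETi76 arm and the arm without TETi76 (block-fit adjusted p = 0.103).

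The smallest differences among the 9 were those of FTL and PRAME, whose replicates lay close together. FTL, the light chain of the iron-storage protein ferritin, measured 10650 and 11050 FPKM with TETi76 and ascorbate, against 9313 and 9134 FPKM with TETi76, and 3192 and 3303 FPKM with ascorbate, against 2887 and 2769 FPKM with DMSO. The FTL difference was 0.22 (SE 0.03, block-fit adjusted p = 0.0793), a linear ratio of 1.18 in the TETi76 arm and 1.15 in the other, and reads of its processed pseudogenes may be counted with it. PRAME, a cancer-testis antigen, measured 974.4 and 952.2 FPKM with TETi76 and ascorbate, against 806.8 and 817.9 FPKM with TETi76, and 971.4 and 943.1 FPKM with ascorbate, against 787.9 and 777.7 FPKM with DMSO. PRAME therefore had ratios of 1.19 and 1.22 in the TETi76 arm and the arm without TETi76 (log2 0.27, SE 0.03, block-fit adjusted p = 0.0793).

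Of the 4 genes lower with ascorbate in that average, 1 was a low-level transcript and 2 differed between arms. LINC00173, a long non-coding RNA, measured 0.283 and 0.292 FPKM with TETi76 and ascorbate, against 2.93 and 5.30 FPKM with TETi76, and 2.41 and 2.48 FPKM with ascorbate, against 5.43 and 6.94 FPKM with DMSO. No other gene of the 13 had so large a difference (log2 -1.50, SE 0.23, block-fit adjusted p = 0.103), and its levels were the lowest of the 13. HEMGN, a nuclear regulator of erythroid cells, measured 34.6 and 34.7 FPKM with TETi76 and ascorbate, against 56.8 and 59.1 FPKM with TETi76, and 134.8 and 150.7 FPKM with ascorbate, against 154.4 and 164.4 FPKM with DMSO. Its difference lay mostly in the TETi76 arm, -0.73 there and -0.16 in the other, although the difference between arms did not pass its test (adjusted p = 0.0922).

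ASNS, asparagine synthetase, and WARS, the tryptophanyl-tRNA synthetase, are both induced by the stress factor ATF4. ASNS measured 52.2 and 56.1 FPKM with TETi76 and ascorbate, against 59.2 and 56.8 FPKM with TETi76, and 99.8 and 110.5 FPKM with ascorbate, against 183.3 and 191.1 FPKM with DMSO. WARS measured 67.7 and 66.6 FPKM with TETi76 and ascorbate, against 70.6 and 71.7 FPKM with TETi76, and 116.6 and 121.7 FPKM with ascorbate, against 197.7 and 194.9 FPKM with DMSO. In the TETi76 arm the ASNS difference was -0.10 and that of WARS -0.08, against -0.83 and -0.72 in the arm without TETi76, and the difference between arms passed its own test for ASNS (adjusted p = 0.0463) and WARS (0.0369).

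**Figure D1:**
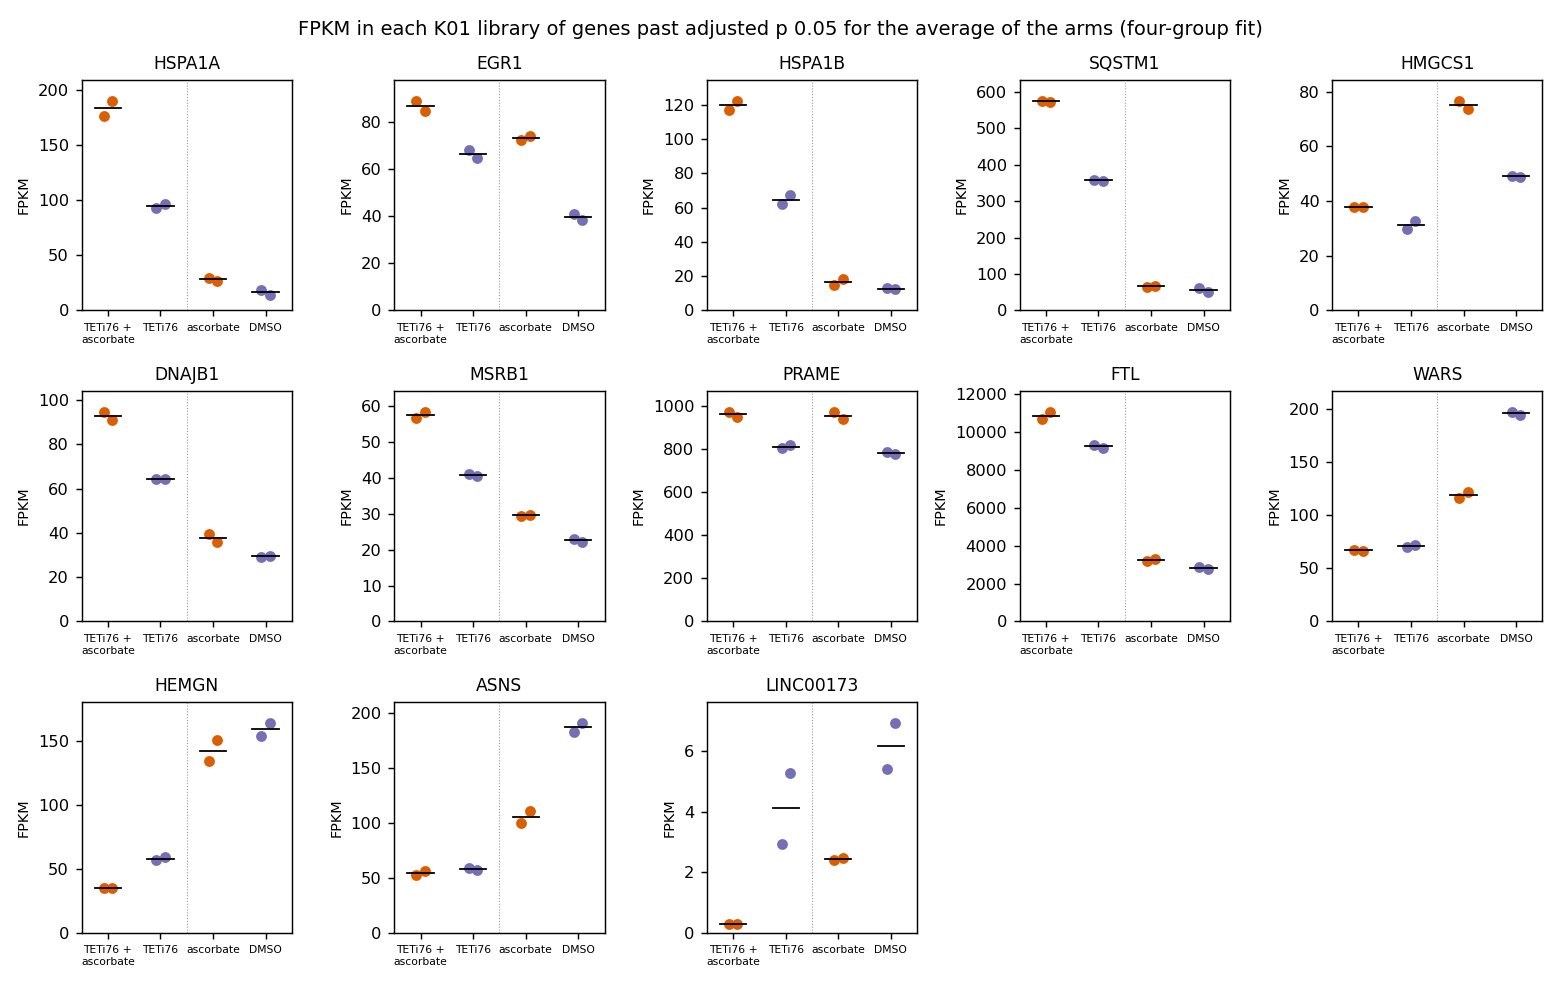
FPKM in each of the 8 K01 libraries for the 13 genes past adjusted p 0.05 in the four-group average, with a linear axis from 0 in each panel. Points are libraries, horizontal bars are means of 2, and orange marks libraries with ascorbate; HSPA1A lies at 176.3 and 190.1 FPKM with TETi76 and ascorbate, against 92.9 and 96.7 FPKM with TETi76, while ASNS and WARS differ mainly between ascorbate and DMSO.

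Across genes, the ascorbate differences in the TETi76 arm and in the arm without TETi76 were close to uncorrelated. Over the 12220 genes the correlation of both differences was r = 0.025 (Spearman 0.004), a description over genes that share libraries within each arm, and 6133 genes (50.2%) had the same sign. Over the 6073 genes with a mean of at least 10 FPKM the correlation was -0.026 (Spearman 0.008), with 50.9% of the same sign. The SD of the differences was 0.31 in the TETi76 arm and 0.29 in the arm without it, and 0.22 for the block fit, whose median SE was 0.13. Block-fit differences over 1 on the log2 scale, in either direction, were found in 40 genes, and in 1 of those with at least 10 FPKM.

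Tested in each arm alone, 22 genes passed for TETi76 with ascorbate against TETi76 (0.18%), 6 higher (0.0491%) and 16 lower (0.131%), and 27 for ascorbate against DMSO (0.221%), 10 higher (0.0818%) and 17 lower (0.139%). None was called in both. Of the 22, 11 had the same sign in the other arm, and of the 27, 12 did. The test of the difference between arms called 29 genes (0.237%), of which 26 had opposite signs in the arms: 11 above 0 with TETi76 and below 0 without it, and 15 the other way round. None of the 29 was called in the block fit, but that call needs the same sign in both arms, which the 26 lack. In the four-group average 2 of the 29 were called, ASNS and WARS. When a library was left out, the 22 ran from 0 to 8, apart from 22 again without the first TETi76 with ascorbate replicate, and the 27 from 0 to 17, apart from 19 without the second. The 29 fell to between 0 and 3 without any of the 8 libraries.

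**Figure D2:**
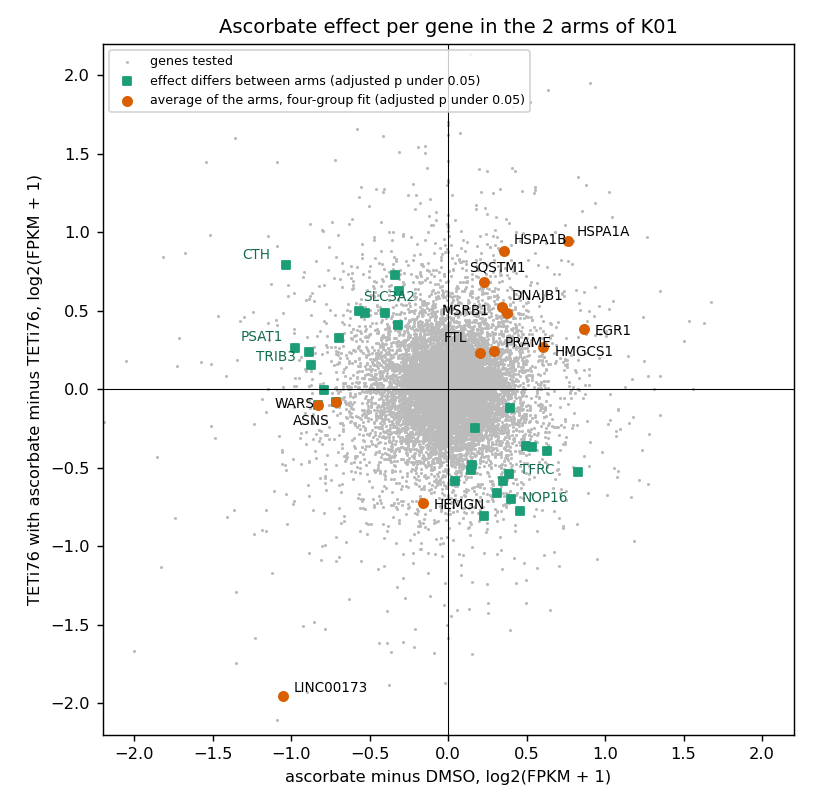
Ascorbate difference of each tested gene in the arm without TETi76 (x axis) and the TETi76 arm (y axis), both in log2(FPKM + 1), with 5 genes outside the axes. Grey points are genes tested, which form a round cloud (r = 0.025), orange points are the 13 genes of the four-group average, and green squares are the 29 genes whose difference between arms passed, mostly at the upper left and lower right.

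The gene lists below were chosen with earlier results of these data known, and no list was tested as a set. A member is counted when its unadjusted block-fit p was under 0.05 and its sign was the same in both arms, a looser rule than the call. Over all genes tested, 4.72% met it as higher (577 genes) and 5.1% as lower (623), and the median difference was -0.00405. With HSPA1A as the exception, no listed gene passed the adjusted threshold of the block fit, so these counts describe and do not call. In a bulk measurement, more RNA per cell and more cells expressing a gene cannot be told apart.

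By the looser rule, genes that handle ascorbate or depend on it gave counts near the background. Of 19 measured genes of the TET and DNA methylation list (20 listed), 2 were higher and 1 lower, with a median of -0.02. The libraries of 4 of the 19 lay higher without overlap in both arms and those of 0 lower, against 4.83% and 4.88% of all genes. TET1, TET2 and TET3 encode the methylcytosine dioxygenases. TET1 measured 3.79 and 4.19 FPKM with TETi76 and ascorbate, against 4.16 and 4.25 FPKM with TETi76, and 6.56 and 6.68 FPKM with ascorbate, against 5.80 and 5.93 FPKM with DMSO. Its groups overlapped in the TETi76 arm and stood apart, higher with ascorbate, in the arm without TETi76, and the block-fit interval was -0.20 to 0.29 (log2 0.04, adjusted p = 0.931). TET2 measured 2.21 and 1.79 FPKM with TETi76 and ascorbate, against 1.802 and 1.904 FPKM with TETi76, and 2.13 and 1.16 FPKM with ascorbate, against 1.99 and 2.40 FPKM with DMSO, with overlapping groups in the arms and an interval of -0.51 to 0.29. For TET3 the interval was -0.25 to 0.28 around means of 6.22 FPKM with TETi76 and ascorbate, 5.65 with TETi76, 6.24 with ascorbate and 6.62 with DMSO. The 2 higher members of the list were OGDH, a subunit of the 2-oxoglutarate dehydrogenase complex (log2 0.35, SE 0.08), and APEX1, the base-excision repair endonuclease (0.21, SE 0.07), and the lower member was the maintenance methyltransferase DNMT1 (-0.14, SE 0.06).

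Ascorbate transport had 5 measured genes of 9, and 0 met the looser rule in either direction. SLC23A2, the ascorbate carrier SVCT2, measured 2.87 and 2.05 FPKM with TETi76 and ascorbate, against 2.60 and 2.44 FPKM with TETi76, and 2.65 and 2.88 FPKM with ascorbate, against 3.06 and 3.14 FPKM with DMSO (log2 interval -0.39 to 0.23). SLC23A1, the other ascorbate carrier, did not pass the filter and was listed at 0.369 FPKM or less in every library. The dehydroascorbate carriers SLC2A1 and SLC2A3, better known for glucose uptake, had intervals of -0.27 to 0.05 and -0.06 to 0.26.

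Enzyme families that use ascorbate, and the targets of HIF, also gave counts near the background. Of 23 measured 2-oxoglutarate-dependent demethylases (27 listed), 1 was higher and 0 lower. That member, JMJD6, measured 36.4 and 39.6 FPKM with TETi76 and ascorbate, against 35.2 and 33.5 FPKM with TETi76, and 24.8 and 22.2 FPKM with ascorbate, against 15.8 and 15.5 FPKM with DMSO (log2 0.35, SE 0.10, adjusted p = 0.323). Of 15 collagen and HIF hydroxylases (24 listed), 1 was higher, the lysyl hydroxylase PLOD1, and 0 lower. Hypoxia-induced genes, the targets of HIF, numbered 26 measured of 32, with 1 higher, 1 lower and a median of 0.00892, and 12 of the 26 had the same sign in both arms. Glycolysis enzymes gave 1 higher and 1 lower of 16, and GAPDH, the abundant glyceraldehyde-phosphate dehydrogenase, had an interval of -0.06 to 0.09.

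Iron handling gave 1 higher and 2 lower of 19 measured genes (23 listed). FTL was the higher member, as given above. FTH1, the heavy chain of the same ferritin shell, averaged 2106 FPKM with TETi76 and ascorbate, 2191 with TETi76, 1005 with ascorbate and 998.5 with DMSO, and its interval was -0.11 to 0.06. The lower members were the iron oxidase HEPH (log2 -0.28, SE 0.07) and the mitochondrial iron importer SLC25A37, mitoferrin (-0.34, SE 0.09).

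Heat-shock, oxidant-defence and lysosomal genes held more higher members than the background share, while endoplasmic reticulum chaperones lay near it (1 higher of 19). In the heat-shock list 6 of 18 were higher and 1 lower, and the libraries of 6 lay higher without overlap in both arms, which 4.83% of all genes did. The 6 were HSPA1A, HSPA1B, DNAJB1, HSPH1, a nucleotide exchange factor of HSP70 (log2 0.27, SE 0.06), and the cytosolic HSP90 chaperones HSP90AA1 (0.13, SE 0.04) and HSP90AB1 (0.07, SE 0.03). HSPD1, the mitochondrial chaperonin, was the lower member (-0.17, SE 0.05). The constitutive HSP70 gene HSPA8 had opposite signs, -0.12 in the TETi76 arm and 0.40 in the arm without TETi76, and this difference passed its test (adjusted p = 0.035).

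NRF2 is the transcription factor of the oxidant and electrophile response, and 7 of its 22 measured targets were higher (24 listed), 0 lower, with a median of 0.14. The list median was 0.21 in the TETi76 arm, with 16 of 22 above 0, but 0.03 in the arm without TETi76, with 13 above 0. SRXN1, sulfiredoxin, which restores overoxidised peroxiredoxins, measured 35.2 and 39.5 FPKM with TETi76 and ascorbate, against 26.3 and 24.5 FPKM with TETi76. Without TETi76 it was at 14.8 and 13.3 FPKM with ascorbate, against 11.4 and 10.2 FPKM with DMSO. The SRXN1 groups stood apart in both arms (log2 0.44, SE 0.09, adjusted p = 0.188). GSR, glutathione reductase, measured 107.3 and 117.5 FPKM with TETi76 and ascorbate, against 91.7 and 96.3 FPKM with TETi76, and 49.4 and 54.1 FPKM with ascorbate, against 47.8 and 45.8 FPKM with DMSO (log2 0.20, SE 0.06, adjusted p = 0.348). The other 5 were FTL, SQSTM1, TXNRD1, EPHX1 and AKR1C3, and TXNRD1, EPHX1 and AKR1C3 did not stand apart in both arms. NQO1, the quinone reductase, measured 127.4 and 141.7 FPKM with TETi76 and ascorbate, against 114.3 and 114.0 FPKM with TETi76, and 29.0 and 26.2 FPKM with ascorbate, against 27.8 and 26.03 FPKM with DMSO, and did not meet the looser rule (log2 0.13, SE 0.07). Of 23 genes of ascorbate recycling and thiol redox, 3 were higher, all 3 also in the NRF2 list, and 1 lower, the mitochondrial glutaredoxin GLRX2.

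Among 25 lysosome and autophagy genes (26 listed), 7 were higher and 0 lower, and 8 were higher without overlap in both arms. The lysosomal hydrolase GLA, which cleaves terminal galactose from glycolipids, measured 64.9 and 66.9 FPKM with TETi76 and ascorbate, against 46.4 and 43.6 FPKM with TETi76. Its levels without TETi76 were 26.1 and 29.3 FPKM with ascorbate, against 23.5 and 20.9 FPKM with DMSO. The arms had the same direction (log2 0.54 and 0.31 in the TETi76 arm and the arm without TETi76), and the block-fit adjusted p was 0.188. Further higher members included the protective protein CTSA (log2 0.27), the sialidase NEU1 (0.21) and the proton-pump subunits ATP6V0D1 (0.23) and ATP6V1B2 (0.15), besides SQSTM1, given above. MAP1LC3B, an autophagosome protein, had opposite signs, 0.41 in the TETi76 arm and -0.32 in the arm without TETi76 (adjusted p of the difference 0.0375).

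Immediate early genes, which respond within minutes to signalling, had the highest median of any list, 0.17, with 6 of 21 measured higher (27 listed) and 0 lower. Of the 21, 11 were higher in both arms and 0 lower in both, where 24.7% and 25.5% of all genes were. IER3, a stress and survival gene, measured 95.2 and 102.7 FPKM with TETi76 and ascorbate, against 51.9 and 52.8 FPKM with TETi76. In the arm without TETi76 it was at 14.6 and 9.98 FPKM with ascorbate, against 9.91 and 9.86 FPKM with DMSO. The separation of IER3 was wide with TETi76 and narrow without it (log2 0.59, SE 0.15, adjusted p = 0.275). The remaining higher members were EGR1, FOS and FOSB of the AP-1 family, the nuclear receptor NR4A1 and the signalling inhibitor SPRY4, of which FOS averaged 9.24 FPKM with TETi76 and ascorbate, 7.32 with TETi76, 3.75 with ascorbate and 2.86 with DMSO. Of 19 p53 targets 4 were higher. In the TETi76 arm 18 of the 19 were above 0 (median 0.17), but 9 were in the arm without TETi76 (median -0.01). Among the 4 was the cell-cycle inhibitor CDKN1A. It averaged 40.2 FPKM with TETi76 and ascorbate and 19.5 FPKM with TETi76, but 5.85 FPKM with ascorbate and 5.48 FPKM with DMSO.

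Erythroid, histone and proliferation genes held more lower than higher members. In the erythroid list 6 of 26 measured genes were lower (29 listed) and 0 higher. The erythroid list lay mostly below 0 in the TETi76 arm, with 20 of 26 members and a median of -0.17. In the arm without TETi76, 15 of 26 were above 0, with a median of 0.02. RHAG, a red-cell membrane channel of the Rh complex, measured 183.8 and 174.7 FPKM with TETi76 and ascorbate, against 219.2 and 221.9 FPKM with TETi76. Without TETi76 RHAG was at 280.3 and 281.6 FPKM with ascorbate, against 295.8 and 300.4 FPKM with DMSO. These groups did not overlap in either arm (log2 -0.19, SE 0.05, adjusted p = 0.323). KLF1, the master regulator of globin genes, averaged 16.3 FPKM with TETi76 and ascorbate and 32.2 FPKM with TETi76, but 75.5 FPKM with ascorbate and 75.9 FPKM with DMSO. Of the globins, HBG2, a fetal form, had an interval of -0.20 to 0.22, and HBE1, the embryonic form, an interval of -0.20 to 0.13. HBE1 had opposite signs, -0.25 in the TETi76 arm and 0.17 in the arm without TETi76, a difference that passed its test (adjusted p = 0.0447). Of 11 heme synthesis enzymes, 1 was lower and 0 higher.

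Replication-dependent histone genes gave 7 lower and 1 higher of 19 measured (21 listed). Their messages mostly lack a poly(A) tail, so poly(A) selection captures a small part of them. HIST1H2AG measured 30.1 and 23.8 FPKM with TETi76 and ascorbate, against 37.1 and 40.5 FPKM with TETi76, and 54.1 and 48.2 FPKM with ascorbate, against 74.1 and 66.9 FPKM with DMSO. It was lower without overlap in both arms (log2 -0.49, SE 0.09, adjusted p = 0.188), as were 4.88% of all genes. The intervals of the 2 most abundant histones spanned 0, at -0.09 to 0.10 for HIST1H2BK and -0.15 to 0.06 for HIST1H1C.

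Of 25 mitosis genes, 8 were lower and 0 higher, with a median of -0.12. The kinetochore protein CENPF measured 21.2 and 23.7 FPKM with TETi76 and ascorbate, against 30.1 and 27.9 FPKM with TETi76, and 29.2 and 29.2 FPKM with ascorbate, against 31.2 and 35.4 FPKM with DMSO (log2 -0.27, SE 0.08, adjusted p = 0.325). The list lay mostly below 0 in the TETi76 arm, with 24 of 25 members and a median of -0.21, while 15 of 25 were below 0 in the other arm, with a median of -0.01. Of 24 ribosome biogenesis genes 5 were lower and 0 higher, led by WDR12 (log2 -0.28, SE 0.08). Of these 24, 21 were below 0 in the TETi76 arm (median -0.20), while 14 were above 0 in the other (median 0.03). Of 26 nuclear oxidative phosphorylation genes 4 were lower and 0 higher, with 21 below 0 in the TETi76 arm and 14 in the other. DNA replication genes gave 2 higher and 3 lower of 32: the G1/S cyclin CCNE1 was higher (log2 0.47, SE 0.09), and the polymerase subunit POLA1 lower (-0.28, SE 0.09).

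Targets of ATF4, the factor of the integrated stress response to amino acid shortage and other stresses, had the lowest median, -0.21, with 9 of 30 measured genes lower (32 listed) and 0 higher. This median joined unlike arms. In the TETi76 arm 19 of 30 were above 0, with a median of 0.07, and in the arm without TETi76 all 30 were below 0, with a median of -0.50. For 7 of the 30 the difference between arms passed its test (0.237% of all genes). PSAT1, an enzyme of serine synthesis, measured 25.7 and 23.3 FPKM with TETi76 and ascorbate, against 19.5 and 20.9 FPKM with TETi76. In the arm without TETi76 it was at 81.8 and 75.4 FPKM with ascorbate, against 155.1 and 156.3 FPKM with DMSO. The ascorbate libraries of PSAT1 were thus the higher ones with TETi76 and the lower ones without it, a difference between arms of 1.24 (SE 0.12, adjusted p = 0.0227).

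Members of the ATF4 list that were lower in both arms were fewer. CBS, the first enzyme of transsulfuration, measured 40.1 and 35.5 FPKM with TETi76 and ascorbate, against 53.01 and 46.33 FPKM with TETi76. Its levels without TETi76 were 134.3 and 132.7 FPKM with ascorbate, against 184.1 and 159.6 FPKM with DMSO. CBS differed by -0.38 in the TETi76 arm and -0.36 in the arm without TETi76 (SE of the block fit 0.07, adjusted p = 0.188). PCK2, mitochondrial phosphoenolpyruvate carboxykinase, measured 5.02 and 7.40 FPKM with TETi76 and ascorbate, against 8.05 and 8.99 FPKM with TETi76, and 35.9 and 33.7 FPKM with ascorbate, against 57.67 and 52.96 FPKM with DMSO (log2 -0.54, SE 0.11, adjusted p = 0.230). ATF4 itself had an interval of -0.20 to 0.01.

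Cholesterol synthesis genes showed the reverse order of signs. In the TETi76 arm 20 of 25 measured genes (27 listed) were below 0, with a median of -0.11, and in the arm without TETi76 21 of 25 were above 0, with a median of 0.23. The difference between arms passed its test in 0 of the 25. In the block fit 4 were higher and 2 lower by the looser rule, and the sterol-responsive genes HMGCS1, NSDHL and STARD4 were among the higher ones. NSDHL, a sterol dehydrogenase, measured 27.5 and 32.5 FPKM with TETi76 and ascorbate, against 22.6 and 22.9 FPKM with TETi76, and 42.2 and 38.6 FPKM with ascorbate, against 32.5 and 26.5 FPKM with DMSO. The lower ones were SREBF2, the transcription factor that drives the pathway (log2 -0.17, SE 0.07), and TM7SF2, a sterol reductase, whose difference was -0.72 in the TETi76 arm and -0.01 in the other.

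**Figure D3:**
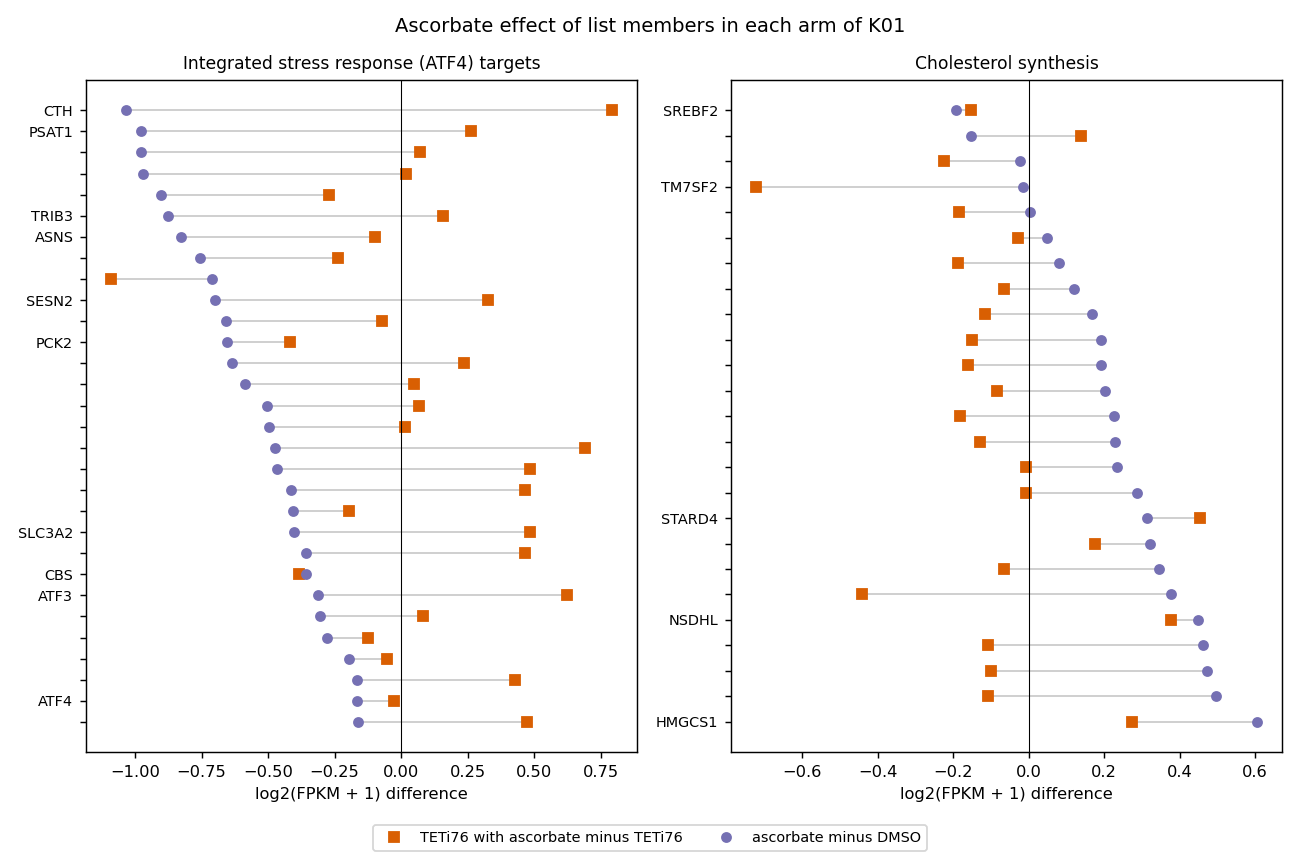
Ascorbate difference in log2(FPKM + 1) of each measured member of the ATF4 target list (left, 30 genes) and the cholesterol synthesis list (right, 25 genes), labelled where named in the text. Orange squares are TETi76 with ascorbate minus TETi76 and purple circles are ascorbate minus DMSO; all 30 circles on the left lie below 0 while 19 of 30 squares lie above it, and on the right 20 of 25 squares lie below 0 while 21 of 25 circles lie above it.

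The remaining lists gave at most 1 member in each direction by the looser rule. They were endoplasmic reticulum chaperones (1 higher of 19), metallothioneins and metal transport (1 lower of 4), NF-kB and TNF response (1 higher of 13) and interferon response (1 higher of 12). Lineage and germline lists gave megakaryocyte genes 1 higher of 5, myelomonocytic genes 1 higher of 5, lymphoid markers 0 of 3, stromal, endothelial or epithelial markers 0 of 5, and germline genes 1 higher of 8, which was PRAME.

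**Figure D4:**
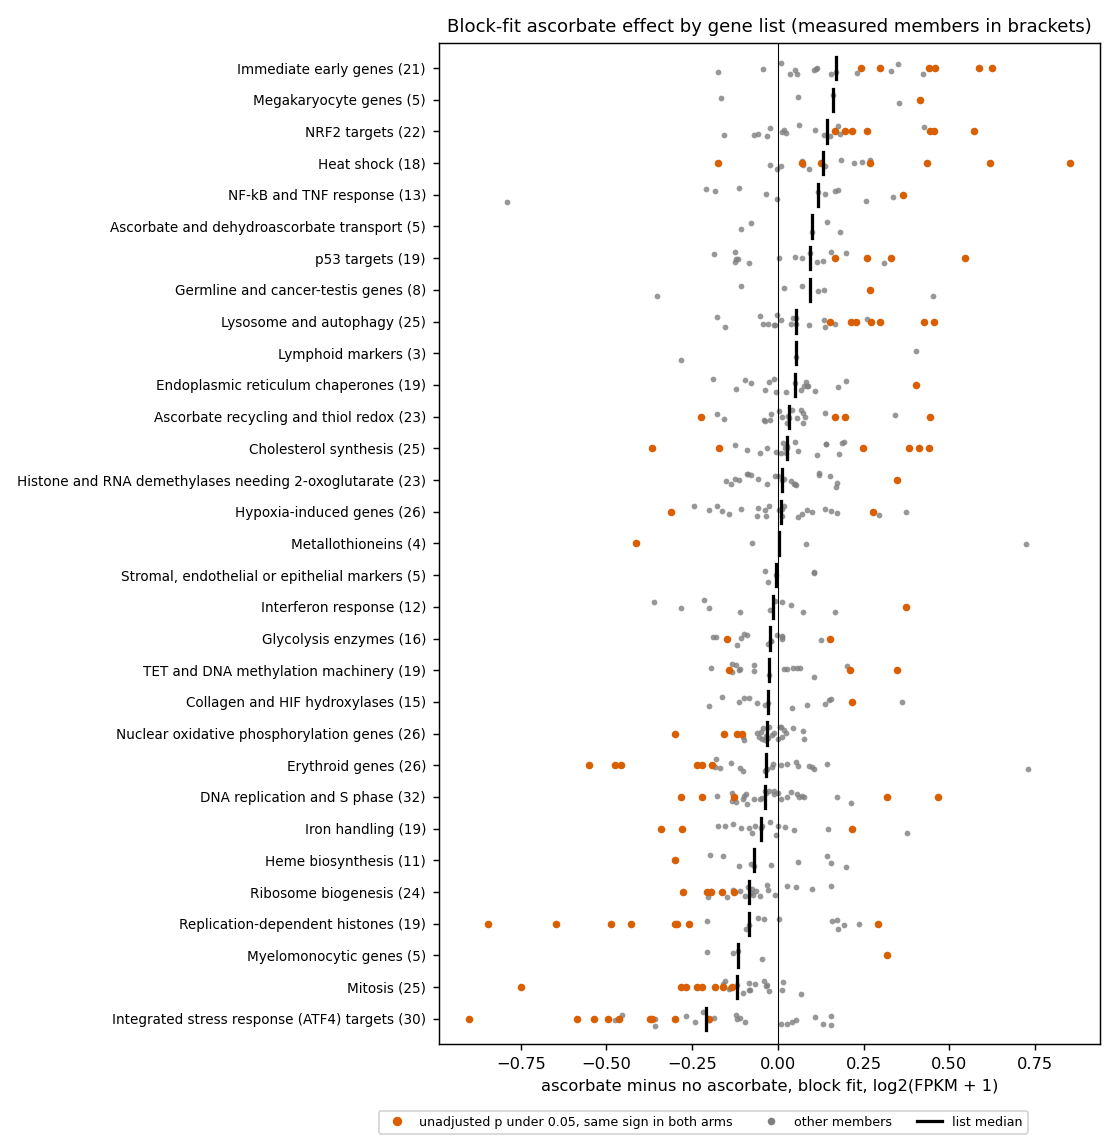
Block-fit ascorbate difference in log2(FPKM + 1) of each measured member of the 31 gene lists, with the number measured in brackets and lists ordered by their median. Orange points had an unadjusted p under 0.05 with the same sign in both arms, grey points are other members and black bars are medians, which run from -0.21 for ATF4 targets to 0.17 for immediate early genes.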

How the data were processed

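The authors' deposited K562 table and single-library files hold normalized FPKM values per gene symbol and library, although the table is named as counts; how it was made is not given in the sources used here, and the values may equally be RPKM, which counts reads in place of fragments. Per the submitters' processing notes, reads were processed with the hg19 genome, STAR, edgeR 3.24.3 and limma 3.38.3, with no roles given. All 10 single-library files equalled their table columns, and 0 K562 columns were left unused. Of 26171 rows, 26 with a number for a name (at most 0.0648% of a library's FPKM sum) and 2273 of short RNAs (36.9% to 40.2%) were left out. Genes with at least 1 FPKM in at least 2 of 8 libraries were kept, 12220 in all. Total reads are not in the table; relative depth was taken from the value of 1 read, since 85.5% of 4938 values up to 0.15 FPKM were whole multiples of it within 0.02 of a read.

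limma 3.58.1 in R 4.3.3 (trend, robust, two-sided) was run on log2(FPKM + 1), which understates differences of genes near 1 FPKM. Terms were TETi76 and ascorbate. A call needed a Benjamini-Hochberg adjusted p under 0.05 over all genes tested and the same sign in both arms. The test for counts named in the plan was not used, because the table holds FPKM. A fit of 4 group means gave the arms, their average and the difference between arms. The scripts were tested on simulated data. Members and the 31 gene lists were chosen with earlier results of these data known. The naming rule took up to 12 called genes per direction (at least 10 FPKM on the higher side, groups apart in each arm), up to 4 called or else the 2 most abundant members of each list, and TET1, TET2, TET3, SLC23A1 and SLC23A2. It gave HSPA1A and the abundant members; other genes named were chosen after their values were seen, from the four-group average, the difference between arms, or list members by the looser rule. Alternatives were other pseudocounts, filters, scalings and fits, and each library left out. SIGM5, which has no ascorbate libraries, was not analysed here, and K18 entered only 1 alternative. Some eligible listed genes are not reported here. Promoter windows came from RefSeq on GRCh38.p14.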

Additional observations from a re-analysis of the deposited data

Results flagged for a closer look

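The difference between arms, as the log2 ascorbate difference with TETi76 minus that without, passed adjusted p 0.05 in the four-group limma fit for 13 genes that are list members or were named above. Values above 0 mean that ascorbate libraries were higher relative to their controls with TETi76 than without it. For ATF4 targets the values were CTH 1.83 (adjusted p = 0.0315), PSAT1 1.24 (0.0227), TRIB3 1.03 (0.0369), ATF3 0.94 (0.0423), SESN2 1.02 (0.0369), SLC3A2 0.89 (0.0292) and ASNS 0.73 (0.0463). WARS gave 0.63 (0.0369) and the autophagosome gene MAP1LC3B 0.73 (0.0375).

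Values below 0 were found for the ribosome biogenesis factor NOP16 (-1.10, adjusted p = 0.0227), the transferrin receptor TFRC (-0.93, 0.0227), the chaperone HSPA8 (-0.52, 0.035) and the embryonic globin HBE1 (-0.42, 0.0447). TFRC, for instance, measured 69.2 and 69.7 FPKM with TETi76 and ascorbate, against 103.7 and 99.3 FPKM with TETi76, and 117.0 and 111.9 FPKM with ascorbate, against 88.8 and 85.8 FPKM with DMSO. No cause of these differences was tested.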

How the results depend on the processing

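HSPA1A kept its direction under every alternative run (log2 0.77 to 0.94), and its call was kept with a pseudocount of 0.1 FPKM, a filter of at least 5 FPKM in at least 4 libraries, median-ratio scaling, quantile normalization, no robust option, and with HSPA1B added, which was chosen after seeing the data. The count of genes called with the same sign in both arms (1 higher, 0 lower) was 0 with a pseudocount of 5 FPKM (HSPA1A adjusted p = 0.0506), 0 with no filter on low values (0.145, with 18531 genes tested), and 0 with a call required in each arm. It was 13 in the four-group average (9 higher, 4 lower) and 33 (18 higher, 15 lower) in a five-group fit that added the 2 K18 libraries to the estimate of spread. Without each library in turn it ran from 0 to 1 (higher 0 to 1, lower 0 to 1): the lower call, without the second TETi76 with ascorbate replicate, was NCK1-AS1. Leaving out a library took the four-group count from 13 to between 0 and 3, chosen after seeing the data.

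A replicate block called 0 genes (0 higher; HSPA1A adjusted p = 0.0925). The labels do not say whether equal replicate numbers pair the libraries. Over all genes tested, the correlations of the replicate differences between groups ran from -0.021 to 0.053 over the 6 pairs of groups. Such values show no replicate difference shared across genes, but a pairing that touches few genes would not appear in them.

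The 29 genes that differed between arms became 0 with no filter, 48 with the stricter filter and 94 in the five-group fit, and 0 to 3 without a library. The 22 genes of TETi76 with ascorbate against TETi76 became 38 and 44 with pseudocounts of 0.1 and 5 FPKM, 0 with no filter, 83 with the stricter filter, 43 with quantile normalization, 97 in the five-group fit, and 0 to 22 without a library. The 27 genes of ascorbate against DMSO became 4 with no filter, 51 with the stricter filter, 62 in the five-group fit, and 0 to 19 without a library. The stricter filter left 8340 genes to adjust over and the five-group fit the same 12220, and the cause of the changed counts was not tested. Over 70 genes, those of the naming rule and of the four-group average, 1170 of 1257 values under the alternatives kept direction and side of the threshold. Of the rest, 25 passed only under the alternative, 10 no longer passed, and 52 of uncalled genes changed sign. Those 10 were all values of HSPA1A, the only gene called in the main fit. The others of the 70 started uncalled, so the share that kept its side does not measure how robust a call was. Genes named only by the looser rule or the difference between arms, such as SRXN1 and PSAT1, were not among the 70. With 2 libraries per group and unknown read totals, differences several times the median SE (0.13 on the log2 scale) could go uncalled. LINC00173, for instance, was not called in the block fit at -1.50 (SE 0.23).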
